A study of Rattus norvegicus with 8 samples.

Results

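Tubulins are the subunits of microtubules, and 10 genes for tubulin isotypes were followed across 4 groups of rat cells on the way from pluripotent stem cells to germ cells. They are the alpha-tubulin genes Tuba1a, Tuba1b, Tuba1c, Tuba3b and Tuba4a and the beta-tubulin genes Tubb2a, Tubb2b, Tubb3, Tubb4a and Tubb6. All 10 are in the table of 22228 named genes, and all 10 passed the filter on low values. They were selected on their measured levels in these same libraries. Their levels and differences are therefore given as a description, without a p-value, and nothing is read from the counts of their calls.

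The study derived primordial germ cell-like cells, a culture model of the earliest germ line, from rat embryonic stem cells of the strain Crlj:WI, and measured gene expression by RNA sequencing in 4 groups of 2 libraries each. The embryonic stem cells (ESC) were held in the naive state with PD0325901 at 1 µM, an inhibitor of MEK, CHIR99021 at 3 µM, an inhibitor of GSK3, and rat LIF at 1000 U/ml, over a layer of mouse fibroblasts. For the epiblast-like cells (EpiLC), dissociated ESC formed aggregates for 60 h in a medium with knockout serum replacement (KSR), 20 ng/ml of activin A and 12 ng/ml of bFGF. The group PGCLC_d3 came from EpiLC aggregates held for 3 days in 500 ng/ml of BMP4, 100 ng/ml of SCF, 50 ng/ml of EGF and 1000 U/ml of rat LIF, by sorting of cells positive for Nanos3-T2A-tdTomato, a red fluorescent reporter of the germ cell gene Nanos3. The group PGCLC_d3ag3 came from such sorted cells, 5000 mixed with 50000 gonadal somatic cells of E15.5 female rat embryos whose own c-KIT-positive germ cells had been removed, and sorted for the reporter again after 3 days. The labels give every group the genotype wild type, although the protocol describes the reporter. They do not say that the 2 libraries of a group came from separate cultures, so a p-value reflects only how far apart these samples lay, and that spread may be technical.

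Microtubules are hollow polymers of heterodimers, each of 1 alpha- and 1 beta-tubulin. Mammals carry several genes for each. The proteins are nearly identical in their folded body and differ most in the tail at the C-terminus, which lies on the outer surface of the microtubule and is the site of most enzymatic modification. Some isotype genes are read in nearly all cells, Tuba1b, Tuba1c, Tubb4b and Tubb5 among them. Others are known for a tissue: Tuba1a, Tubb2a, Tubb2b, Tubb3 and Tubb4a for neurons, and the Tuba3 genes for the testis and germ line in the mouse.

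The copies share much coding sequence, and RefSeq lists many processed pseudogenes for Tuba1a and Tuba1b. In the RefSeq gene order of the assembly GRCr8, Tuba1b and Tuba1a are neighbours on chromosome 7 and lie within the listed span of Tuba1c, and Tubb2b, Tubb2al1 and Tubb2a follow each other on chromosome 17. How reads common to 2 copies were assigned is not given in the sources used here. The level of each isotype, and most of all the split between close copies, is uncertain for that reason. Levels are given as TPM, a normalised abundance that is per transcript length and so can be set beside each other between genes. Differences are of log2(TPM+1), which understates the change of genes with low levels, and are given as the group named first minus the group named second. In bulk samples, fewer cells that express a gene and less RNA per cell cannot be told apart.

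The promoters of 5 tubulin genes are shown here, 250 bases before to 50 after the gene's start in RefSeq on GRCr8, read 5′ to 3′ on the gene's strand. Tuba3b and its close copy Tuba3a are shown because their levels were far apart between PGCLC_d3 and PGCLC_d3ag3, Tubb4a because it was near 0 in ESC and high in EpiLC, and Tubb2a and Tubb2b because both were highest in ESC and low in both PGCLC groups. Capitals mark the CCAAT box and the core letters TCCCGC of an E2F motif, each on either strand, so that ATTGG and GCGGGA are marked too. The locations are chr4:180319350-180319649 (plus strand), chr4:159770151-159770450 (minus strand), chr9:2012232-2012531 (minus strand), chr17:31001936-31002235 (plus strand) and chr17:30952836-30953135 (plus strand), all on GRCr8.
Tuba3b: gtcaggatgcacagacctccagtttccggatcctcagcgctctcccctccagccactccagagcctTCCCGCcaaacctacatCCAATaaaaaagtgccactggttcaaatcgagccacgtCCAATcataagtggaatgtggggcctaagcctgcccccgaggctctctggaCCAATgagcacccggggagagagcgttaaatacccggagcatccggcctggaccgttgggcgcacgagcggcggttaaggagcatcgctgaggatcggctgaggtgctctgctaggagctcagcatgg
Tuba3a: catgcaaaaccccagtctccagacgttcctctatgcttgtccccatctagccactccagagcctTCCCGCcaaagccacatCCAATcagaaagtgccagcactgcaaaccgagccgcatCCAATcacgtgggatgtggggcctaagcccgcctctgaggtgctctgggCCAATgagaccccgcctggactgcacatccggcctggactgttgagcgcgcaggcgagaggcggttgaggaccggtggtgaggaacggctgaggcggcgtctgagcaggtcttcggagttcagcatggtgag
Tubb4a: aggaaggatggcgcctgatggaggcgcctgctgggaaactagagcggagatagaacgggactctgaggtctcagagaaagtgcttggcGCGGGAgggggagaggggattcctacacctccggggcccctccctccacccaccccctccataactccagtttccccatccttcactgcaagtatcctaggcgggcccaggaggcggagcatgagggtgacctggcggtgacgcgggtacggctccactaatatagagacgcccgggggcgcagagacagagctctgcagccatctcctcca
Tubb2a: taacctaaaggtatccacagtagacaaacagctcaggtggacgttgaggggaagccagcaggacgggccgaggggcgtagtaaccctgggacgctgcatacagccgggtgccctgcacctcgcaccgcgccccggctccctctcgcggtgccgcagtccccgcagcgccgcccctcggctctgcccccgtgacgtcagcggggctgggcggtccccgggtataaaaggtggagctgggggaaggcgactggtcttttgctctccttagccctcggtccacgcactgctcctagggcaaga
Tubb2b: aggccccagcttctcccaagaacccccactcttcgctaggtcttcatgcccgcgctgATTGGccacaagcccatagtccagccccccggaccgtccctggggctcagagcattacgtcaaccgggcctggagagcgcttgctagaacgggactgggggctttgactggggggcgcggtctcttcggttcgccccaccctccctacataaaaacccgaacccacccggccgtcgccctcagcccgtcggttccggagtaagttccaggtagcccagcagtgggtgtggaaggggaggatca

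The promoters of Tuba3b and Tuba3a were identical at 233 of 270 aligned bases (86.3%), and their longest common run was 26 bases and held the TCCCGC. Each held 3 CCAAT boxes and 1 TCCCGC at nearly the same places. In Tuba3b the TCCCGC began at position -184 from the start and the CCAAT boxes at -167, -129 and -78, and in Tuba3a they began at -186, -169, -131 and -82. In the mouse, Tuba3 genes are known as targets that the repressor E2F6 keeps silent outside the germ line. Tubb4a had a TCCCGC at -162 and no CCAAT box. Tubb2a and Tubb2b lie on either side of Tubb2al1 in the genome. They did not resemble each other in this window, with 127 of 176 aligned bases identical and no common run over 7 bases.

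Over all 10 isotypes, CCAAT was found in 7 promoters, against 37.7% of 27367 rat promoters of the same length. TCCCGC was found in 5 of the 10 (Tuba1b, Tuba3b, Tuba4a, Tubb4a and Tubb6), against 19.7% of all promoters. GGGCGG, the letters of a GC box, was found in 7, against 34.7%, TATAAA in Tubb2a alone, against 14.2%, and CACGTG in none, against 6.65%. Each motif was searched on both strands. A GC box and other motifs in GC-rich promoters are not independent of base composition, and a match in the letters is not a measured binding site.

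In the alpha-tubulins, Tuba1a, a major alpha-tubulin of developing neurons that is also made in many dividing cells, had TPM of 1414 and 1073 in ESC, 850.6 and 920.6 in EpiLC, 230.2 and 378 in PGCLC_d3, and 483.7 and 559.3 in PGCLC_d3ag3. Both ESC libraries were highest and both PGCLC_d3 libraries lowest, and no 2 groups overlapped. Its replicates lay further apart than those of the other alpha-tubulins of similar level. The log2 difference was -0.48 (SE 0.200) for EpiLC and ESC, -1.58 for PGCLC_d3 and EpiLC, and 0.82 for PGCLC_d3ag3 and PGCLC_d3. Without PGCLC_d3 replicate 1, the last of these was 0.46.

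Tuba1b, an alpha-tubulin gene read in nearly all cell types, had TPM of 618.1 and 625.9 in ESC, 916.1 and 966.4 in EpiLC, 689.3 and 696.5 in PGCLC_d3, and 670.4 and 647.1 in PGCLC_d3ag3. Its highest-to-lowest range was the smallest of the 10 genes, with EpiLC highest and the other 3 groups close together but not overlapping. On the log2 scale it differed by 0.60 (SE 0.048) for EpiLC and ESC and -0.44 for PGCLC_d3 and EpiLC, the second with -0.71 under median-of-ratios rescaling and -0.24 under quantile normalization. For PGCLC_d3ag3 and PGCLC_d3 it was -0.07, a direction that turned to 0.13 under median-of-ratios rescaling, with -0.29 under quantile normalization.

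Tuba1c, the other widely read alpha-tubulin gene, had TPM of 1208 and 1057 in ESC, 423.3 and 421.3 in EpiLC, 398.5 and 374.3 in PGCLC_d3, and 295.7 and 286.4 in PGCLC_d3ag3. ESC stood well above the other groups, EpiLC and PGCLC_d3 lay close together, and each later group was lower than the one before it. The log2 difference was -1.42 (SE 0.066) for EpiLC and ESC and -0.41 for PGCLC_d3ag3 and PGCLC_d3, the second of which shrank to -0.20 under median-of-ratios rescaling. For PGCLC_d3 and EpiLC it was -0.13, with -0.40 under median-of-ratios rescaling and a turn to 0.02 under quantile normalization.

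Tuba4a, whose protein lacks the tyrosine that most alpha-tubulin genes encode as the last residue, had TPM of 267.5 and 280.9 in ESC, 68.4 and 79.2 in EpiLC, 41.9 and 41.5 in PGCLC_d3, and 128.1 and 129.9 in PGCLC_d3ag3. It was highest in ESC and lowest in PGCLC_d3, and the 4 groups did not overlap. The mean was 129 ± 1.27 TPM in PGCLC_d3ag3 and 41.7 ± 0.314 TPM in PGCLC_d3 (SD, n = 2 each), a log2 difference of 1.61 (SE 0.072).

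Tuba3b had the widest range of the alpha-tubulins. Its TPM were 11 and 9.99 in ESC, 11.3 and 10.4 in EpiLC, 0.122 and 0.141 in PGCLC_d3, and 95.5 and 100.3 in PGCLC_d3ag3. ESC and EpiLC overlapped, both PGCLC_d3 libraries were near 0, and both PGCLC_d3ag3 libraries were above all others. It differed on the log2 scale by 0.04 (SE 0.107) for EpiLC and ESC, which turned to -0.02 without ESC replicate 2 and to -0.01 without EpiLC replicate 1. It was -3.39 for PGCLC_d3 and EpiLC and 6.45 for PGCLC_d3ag3 and PGCLC_d3.

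Tuba3a, the close copy of Tuba3b, is not among the 10 genes and was tested. It had TPM of 55.5 and 49.1 in ESC, 29.5 and 29.4 in EpiLC, 1.35 and 2.26 in PGCLC_d3, and 229.2 and 231.2 in PGCLC_d3ag3. As for Tuba3b, PGCLC_d3 was lowest and PGCLC_d3ag3 highest, and for Tuba3a ESC and EpiLC did not overlap. In limma, Tuba3a fell by 0.81 in EpiLC against ESC (SE 0.135, adjusted p = 0.000459), fell by 3.46 in PGCLC_d3 against EpiLC (adjusted p = 1.41e-08) and rose by 6.38 in PGCLC_d3ag3 against PGCLC_d3 (adjusted p = 2.11e-09) on the log2 scale. The 2 genes are near copies, so reads may have been split between them and their agreement is not independent. Their sum, which such a split leaves alone, was 328.1 ± 4.8 TPM in PGCLC_d3ag3 and 1.94 ± 0.662 TPM in PGCLC_d3 (SD, n = 2 each). Reads common to both copies would lower this sum if they were not counted.

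In the beta-tubulins, Tubb2a, a beta-tubulin gene known for neurons, had TPM of 298.4 and 278.2 in ESC, 36.5 and 29.1 in EpiLC, 3.74 and 4.46 in PGCLC_d3, and 3.48 and 3.17 in PGCLC_d3ag3. Both ESC libraries were highest, EpiLC came next, and both PGCLC groups were low. The log2 difference was -3.11 (SE 0.122) for EpiLC and ESC and -2.72 for PGCLC_d3 and EpiLC. For PGCLC_d3ag3 and PGCLC_d3 it was -0.23, with -0.07 under median-of-ratios rescaling and a turn to 0.11 under quantile normalization.

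Tubb2b, on the other side of Tubb2al1 from Tubb2a, is a beta-tubulin of migrating cortical neurons. It had TPM of 270.7 and 268.1 in ESC and 46.2 and 41.5 in EpiLC. In PGCLC_d3 it had 7.66 and 6.11, and in PGCLC_d3ag3 7.3 and 8.16. The order of ESC, EpiLC and the PGCLC groups was that of Tubb2a, and both PGCLC groups overlapped. On the log2 scale it differed by -2.59 (SE 0.108) for EpiLC and ESC, -2.51 for PGCLC_d3 and EpiLC, and 0.15 for PGCLC_d3ag3 and PGCLC_d3. This last difference was 0.33 under median-of-ratios rescaling and 0.53 under quantile normalization. Since reads common to Tubb2a and Tubb2b may have been split, their sum is also given, without Tubb2al1. It was 557.7 ± 16.2 TPM in ESC, 76.6 ± 8.61 in EpiLC, 11 ± 0.593 in PGCLC_d3 and 11.1 ± 0.391 in PGCLC_d3ag3 (SD, n = 2 each).

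Tubb3, the beta-tubulin used as a marker of neurons, had TPM of 72.6 and 59.6 in ESC, 5.96 and 6.35 in EpiLC, 13.2 and 15.9 in PGCLC_d3, and 12.6 and 10.5 in PGCLC_d3ag3. ESC was highest and EpiLC lowest, with no overlap between groups. The log2 difference was -3.22 (SE 0.134) for EpiLC and ESC and 1.11 for PGCLC_d3 and EpiLC. For PGCLC_d3ag3 and PGCLC_d3 it was -0.31, with -0.12 under median-of-ratios rescaling and a turn to 0.03 under quantile normalization. The summed level of 12 listed neural markers lay at 68.3 to 73.2 TPM in ESC, 37.3 to 47.5 in EpiLC, 125.4 to 158.8 in PGCLC_d3 and 6.37 to 6.87 in PGCLC_d3ag3, nearly all of it from Nefl, Nefm, Elavl4, Neurog2 and Sox1. Pax6 was listed at 0 in 7 of the 8 libraries and at 0.0175 TPM in PGCLC_d3ag3 replicate 2, and the part of neural transcription in the level of Tubb3 was not tested.

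Tubb4a, a beta-tubulin known for the brain, had TPM of 0.173 and 0.168 in ESC, 272.6 and 315.7 in EpiLC, 21.3 and 21.7 in PGCLC_d3, and 3 and 3.05 in PGCLC_d3ag3. EpiLC stood alone at the top, ESC was near 0, and the levels in both PGCLC groups lay between without overlap. The log2 difference amounted to 7.97 (SE 0.105) for EpiLC and ESC, -3.71 for PGCLC_d3 and EpiLC, and -2.48 for PGCLC_d3ag3 and PGCLC_d3. Tubb4a had the widest range of group means of the 10 genes.

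Tubb6, a beta-tubulin gene of many non-neuronal tissues, had TPM of 586.7 and 623.7 in ESC, 132.5 and 129 in EpiLC, 191.9 and 176.3 in PGCLC_d3, and 56.2 and 55.8 in PGCLC_d3ag3. ESC was highest and PGCLC_d3ag3 lowest, with no overlap. The log2 difference was -2.20 (SE 0.059) for EpiLC and ESC, 0.49 for PGCLC_d3 and EpiLC (0.22 under median-of-ratios rescaling), and -1.70 for PGCLC_d3ag3 and PGCLC_d3.

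**Figure D1:**
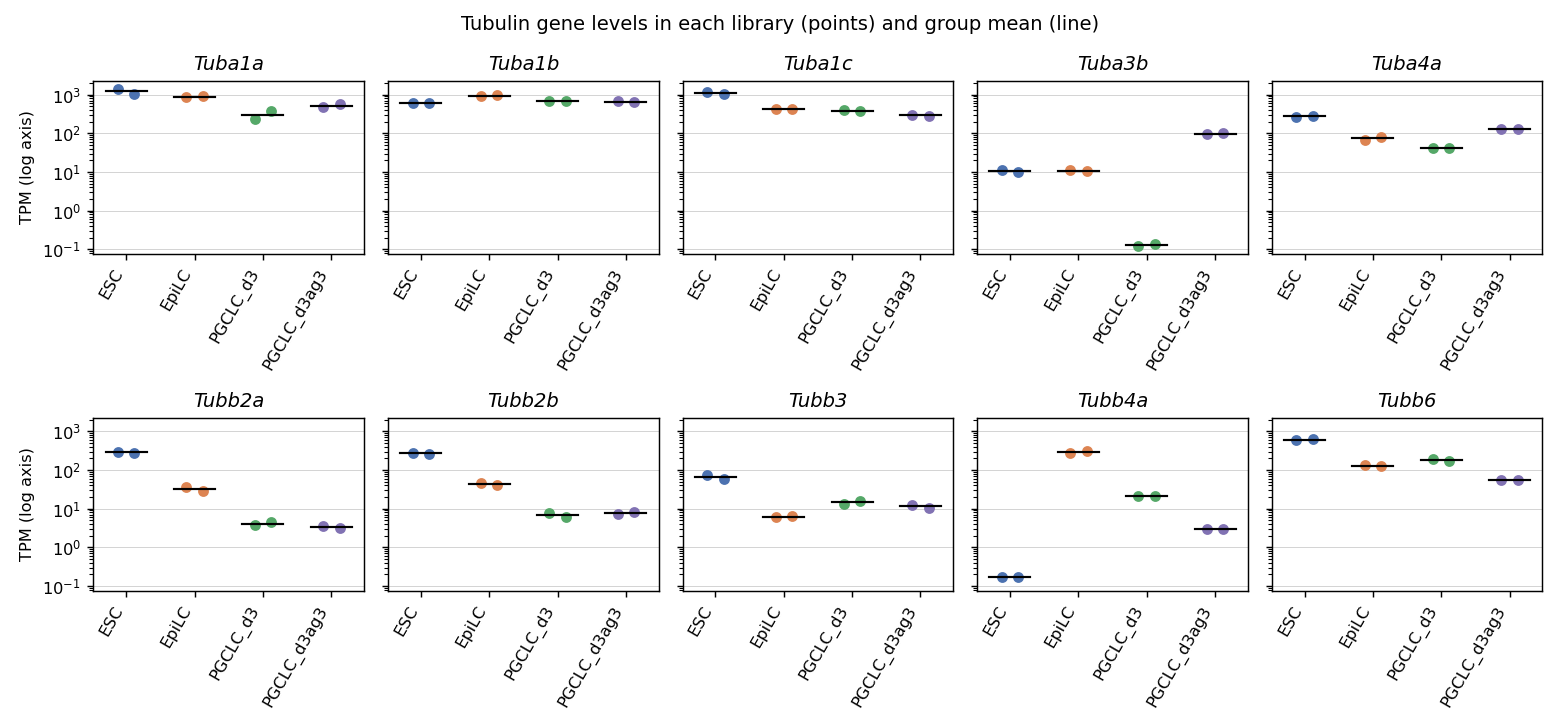
TPM of each of the 10 tubulin genes on a log axis, with 1 point per library in the groups ESC, EpiLC, PGCLC_d3 and PGCLC_d3ag3 and a line at the group mean (n = 2). Tuba3b averages 97.9 TPM in PGCLC_d3ag3 and 0.131 TPM in PGCLC_d3, and Tubb4a averages 294.2 TPM in EpiLC and 0.17 TPM in ESC.

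By the group with the highest mean, 7 of the 10 genes were highest in ESC (Tuba1a, Tuba1c, Tuba4a, Tubb2a, Tubb2b, Tubb3 and Tubb6), 2 in EpiLC (Tuba1b and Tubb4a), 0 in PGCLC_d3 and 1 in PGCLC_d3ag3 (Tuba3b). Of all 13571 genes that passed the filter, 21.7% were highest in ESC, 21% in EpiLC, 33% in PGCLC_d3 and 24.3% in PGCLC_d3ag3. The 10 genes were selected on these levels, so nothing is read from where they were highest. For 8 of the 10 genes no 2 of the 4 groups overlapped, the exceptions being Tuba3b in ESC and EpiLC and Tubb2b in both PGCLC groups. The share of all tested genes without such overlap was not counted, so nothing is read from this number.

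Counted by the limma fit over all 13571 genes, a gene was called at an adjusted p under 0.05. In EpiLC against ESC, 2 of the 10 genes were called higher, 6 lower and 2 not, where 67.3% of all tested genes were called, 35.4% higher and 31.8% lower. In PGCLC_d3 against EpiLC, 2 were called higher, 7 lower and 1 not, where 74.9% of all genes were called, 47.3% higher and 27.6% lower. In PGCLC_d3ag3 against PGCLC_d3, 3 were called higher, 3 lower and 4 not, where 70.4% of all genes were called, 25.7% higher and 44.8% lower. These calls changed with the scaling. Under median-of-ratios rescaling Tuba1c was also called in PGCLC_d3 against EpiLC, and in the last comparison Tuba1c was no longer called and Tubb2b was. Under quantile normalization Tuba1a was also called in EpiLC against ESC, and Tuba1b and Tubb2b in the last comparison. Since the 10 genes were selected on these levels, nothing is read from the counts. The median log2 difference of the 10 genes was -1.65, -1.19 and -0.15 in the 3 comparisons, beside 0.04, 0.21 and -0.18 over all tested genes.

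The centre of all genes depended on the scaling. With the deposited values, 52.7%, 63.2% and 36.4% of all calls were higher in the 3 comparisons, against 50.7%, 49% and 49.7% under median-of-ratios rescaling and 51%, 50.8% and 49.9% under quantile normalization. Set against the median gene, Tubb6 lay 0.28 above it in PGCLC_d3 against EpiLC, and Tuba1b lay 0.11 above it in PGCLC_d3ag3 against PGCLC_d3. The large differences of Tuba3b, Tuba4a, Tubb2a, Tubb2b, Tubb4a and Tubb6 named above kept their direction under both scalings, except for Tubb2a in PGCLC_d3ag3 against PGCLC_d3.

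**Figure D2:**
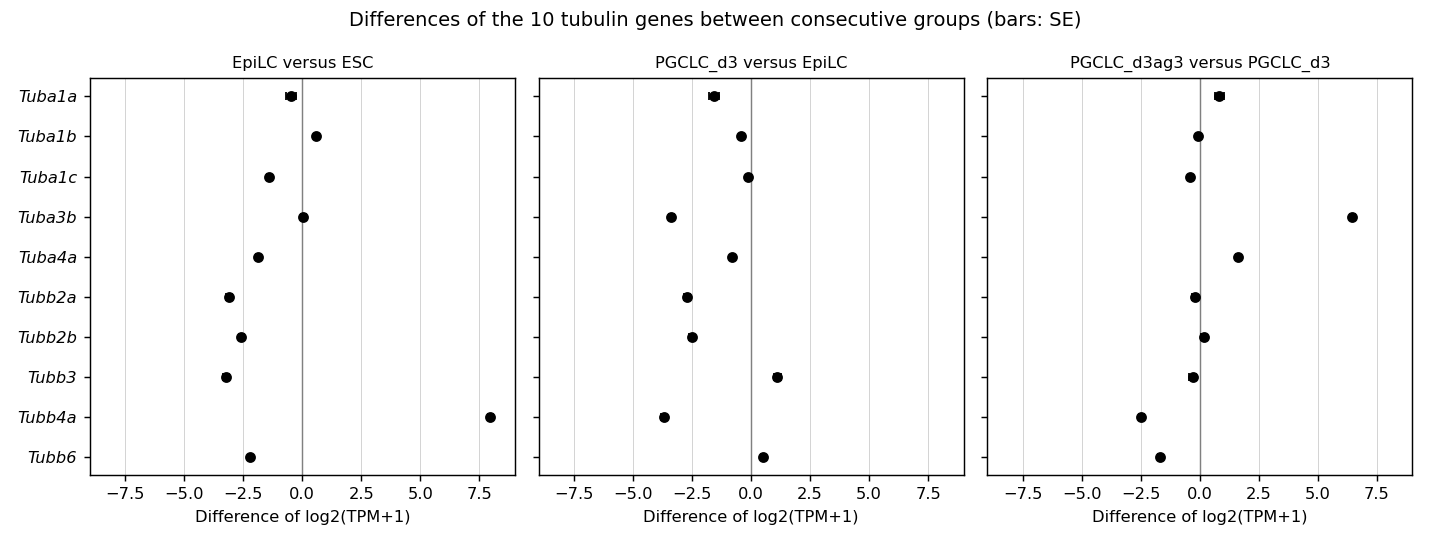
Difference of log2(TPM+1) of each of the 10 tubulin genes in EpiLC against ESC, PGCLC_d3 against EpiLC and PGCLC_d3ag3 against PGCLC_d3, with the standard error as a bar. Tubb4a lies at 7.97 in the first comparison and Tuba3b at 6.45 in the third, and most of the other points of the first comparison lie left of 0.

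Taken as shares of the alpha-tubulin mRNA, the makeup moved between the groups. Tuba1a held 37.1%, 37.5%, 21.1% and 27% in ESC, EpiLC, PGCLC_d3 and PGCLC_d3ag3, and Tuba1b held 18.8%, 39.8%, 48.6% and 34.2%. Tuba1c held 34%, 17.9%, 27.2% and 15.1%. Tuba1b was thus the third gene of the 3 Tuba1 genes in ESC and the first in the other groups. Its lead was narrow in EpiLC, where Tuba1a had 37% and 37.9% and Tuba1b 39.8% in both libraries. The share of Tuba1a was 16.9% and 25.3% in the PGCLC_d3 libraries and 25.4% and 28.6% in those of PGCLC_d3ag3. These ranks rest on the split between close copies, which is uncertain.

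The Tuba3 genes together held 1.89% of alpha-tubulin mRNA in ESC, 1.71% in EpiLC, 0.134% in PGCLC_d3 and 17% in PGCLC_d3ag3, with 17.1% and 17% in the last 2 libraries. The Tuba1 genes together held 89.8%, 95.2%, 96.9% and 76.3% in the same order of groups. Tuba4a held 8.28%, 3.12%, 2.93% and 6.69%.

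Of the beta-tubulin mRNA, the 5 listed genes Tubb2a, Tubb2b, Tubb3, Tubb4a and Tubb6 held 35% in ESC, 18.3% in EpiLC, 8.52% in PGCLC_d3 and 3.65% in PGCLC_d3ag3. Within them, Tubb6 had the largest share in ESC, at 17.2%, and Tubb4a in EpiLC, at 10.6%. In PGCLC_d3 and PGCLC_d3ag3 it was Tubb6 again, at 6.78% and 2.5%. The rest was Tubb5 and Tubb4b, both read in nearly all cells, which together held 65%, 81.7%, 91.5% and 96.3%.

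Tubb5 and Tubb4b are not among the 10 genes and were tested. Tubb5 averaged 1463 ± 87.5 TPM in EpiLC and 1165 ± 2.29 in ESC (SD, n = 2 each; log2 0.33, limma adjusted p = 0.000332), and 1804 ± 27.4 TPM in PGCLC_d3. Its rise in PGCLC_d3 against EpiLC (log2 0.30, limma adjusted p = 0.000445) shrank to 0.03 under median-of-ratios rescaling (adjusted p = 0.673), and its fall in PGCLC_d3ag3 against PGCLC_d3 was -0.37 (limma adjusted p = 0.000146). Tubb4b fell by 0.48 in EpiLC against ESC (limma adjusted p = 9.3e-06). Its further differences were -0.24 in PGCLC_d3 against EpiLC (limma adjusted p = 0.000893), which ended under quantile normalization at -0.03, and 0.16 in PGCLC_d3ag3 against PGCLC_d3 (limma adjusted p = 0.0101), which ended at adjusted p = 0.105 without PGCLC_d3 replicate 2 and turned to -0.01 under quantile normalization.

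The summed alpha-tubulin level was 3335 ± 338.7 TPM in ESC, 2363 ± 90.6 in EpiLC, 1427 ± 92.8 in PGCLC_d3 and 1929 ± 36.3 in PGCLC_d3ag3 (SD, n = 2 each). The summed beta-tubulin level was 3516 ± 27.4, 2773 ± 105.5, 2713 ± 56.5 and 2237 ± 7.22 TPM in the same order. The alpha-to-beta ratio was 1.01 and 0.885 in ESC, 0.852 in both EpiLC libraries, 0.495 and 0.558 in PGCLC_d3, and 0.852 and 0.871 in PGCLC_d3ag3. Both PGCLC_d3 libraries were below all others. These ratios rest on the authors' transcript lengths, and the ratio of the proteins was not measured.

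**Figure D3:**
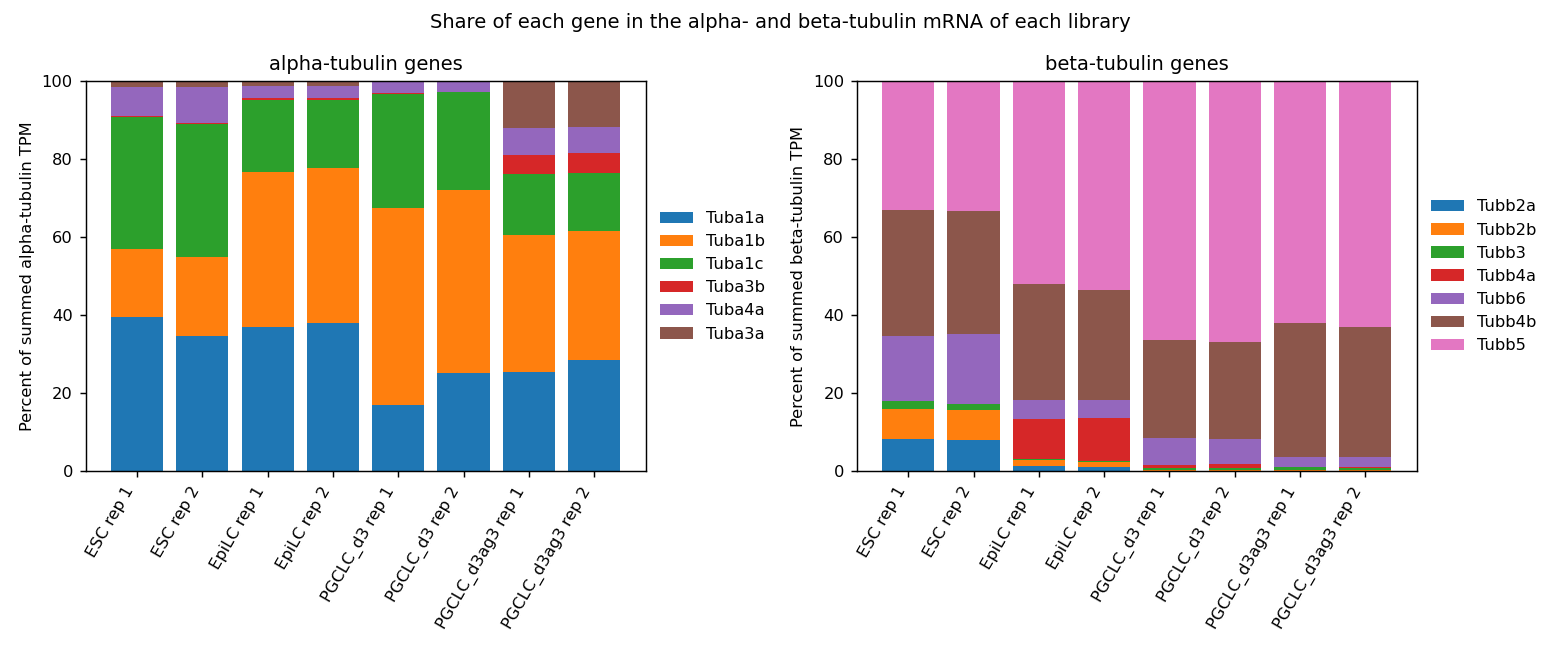
Share of each gene in the summed TPM of alpha-tubulin genes (left) and of beta-tubulin genes (right), in percent, as stacked bars for each of the 8 libraries; genes below 0.5% in every library are left out. The share of Tubb5 and Tubb4b together grows to 96.3% in PGCLC_d3ag3, and Tuba3a with Tuba3b reaches 17% of alpha-tubulin mRNA there.

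The platelet gene Tubb1 and the alpha-tubulin genes Tuba8 and Tubal3 did not pass the filter on low values, and Tubb1 reached at most 0.208 TPM. Tubg1, the gamma-tubulin that starts microtubules at the centrosome, averaged 179.1 ± 0.177 TPM in PGCLC_d3 and 94.5 ± 1.78 in EpiLC (SD, n = 2 each; log2 0.92, limma adjusted p = 2.24e-07). Its mean in PGCLC_d3ag3, 203 ± 5 TPM (SD, n = 2), was above that of 7 of the 10 isotypes there. Tube1, the epsilon-tubulin of centrioles, averaged 28.9 ± 0.308 TPM in EpiLC and 14.6 ± 0.703 in ESC (log2 0.94, limma adjusted p = 6.53e-06), and Tubd1, the delta-tubulin, 4.84 ± 0.272 and 2.13 ± 0.00766 TPM in the same groups (log2 0.90, limma adjusted p = 9.33e-05). Of the 7 other tubulin genes tested, 5 rose and 2 fell in EpiLC against ESC, 2 rose and 3 fell in PGCLC_d3 against EpiLC, and 3 rose and 2 fell in PGCLC_d3ag3 against PGCLC_d3. Over all tested genes the shares were 35.4% higher and 31.8% lower, 47.3% and 27.6%, and 25.7% and 44.8%, and 7 genes are too few to set against them.

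For the 3 isotypes with the widest ranges, the 3 genes with the most similar pattern were found among 5183 genes by Pearson correlation of log2(TPM+1) over the 8 libraries. The 8 libraries are 4 groups of 2, and the genes were picked as the highest of many, so the correlations are a description. For Tubb4a they were Pou3f1 (r = 0.9992), a POU transcription factor of the formative epiblast, Tmem98 (r = 0.9983) and Ibtk (r = 0.9973). Pou3f1 had TPM of 1.08 and 1.06 in ESC, 210.4 and 218.5 in EpiLC, 26.9 and 26.7 in PGCLC_d3, and 4.22 and 4.88 in PGCLC_d3ag3, so that it, like Tubb4a, was high in EpiLC and in each later group lower than in the one before.

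For Tuba3b the 3 genes were Gpat2 (r = 0.9955), a mitochondrial acyltransferase gene of germ cells, Syce1 (r = 0.9924), which encodes a protein of the synaptonemal complex of meiosis, and Hmgcs1 (r = 0.9922), which encodes an enzyme of cholesterol synthesis. The later germ cell genes Dazl and Ddx4 were at 967.2 to 1007 TPM in sum in PGCLC_d3ag3 and 1.62 to 1.69 in PGCLC_d3. In EpiLC the sum was 147.3 to 175.8 TPM and in ESC 54 to 60.4. Most of the sum in PGCLC_d3ag3 was Dazl, at 763.3 and 806.3 TPM. Ddx4 had 203.9 and 200.7 TPM there and 162.3 and 133.6 TPM in EpiLC. For Tubb2a the 3 most similar genes were Pkm (r = 0.9991), a pyruvate kinase gene of glycolysis, Unc13d (r = 0.9976) and Pebp1 (r = 0.9973).

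**Figure D4:**
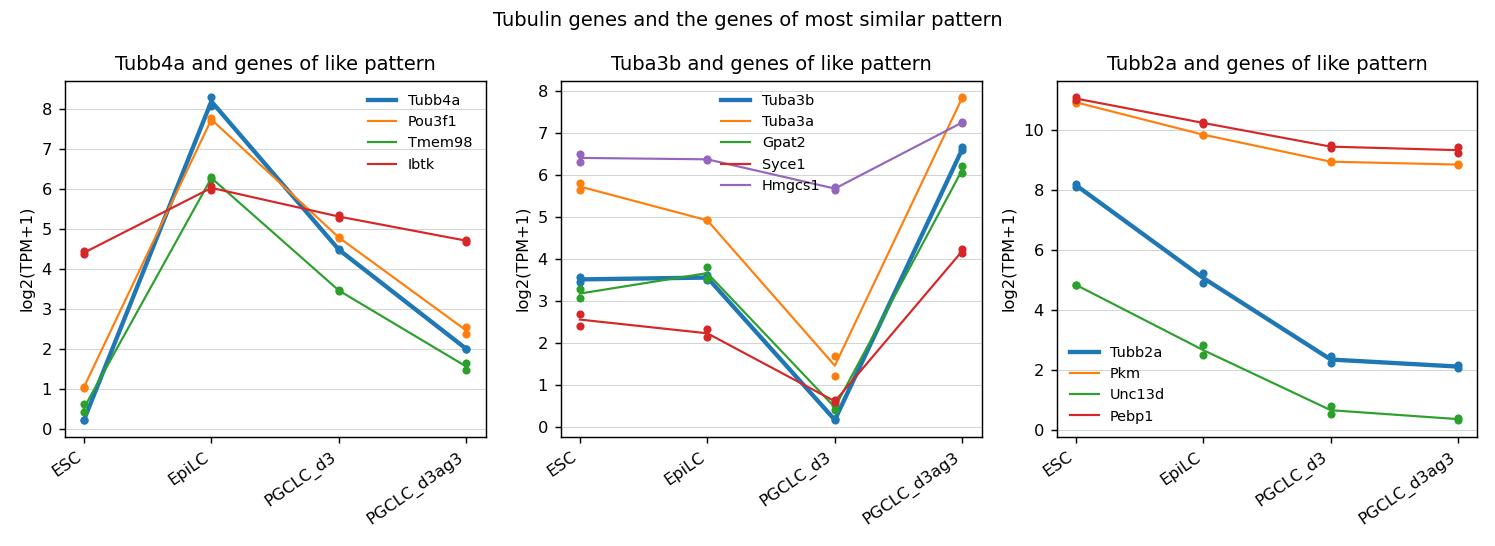
log2(TPM+1) of Tubb4a, Tuba3b and Tubb2a (thick lines) and of the 3 genes most similar to each, with Tuba3a added beside Tuba3b; points are libraries and lines join group means (n = 2). Pou3f1 follows Tubb4a closely, and Ibtk, Hmgcs1, Pkm and Pebp1 move over a narrower range than the tubulin gene beside them; Hmgcs1 averages 82.3 TPM in EpiLC and 84.4 TPM in ESC, an order opposite to that of Tuba3b.

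Beyond the subunits, 112 genes that fold tubulin, modify it, bind microtubules or start them were listed, of which 107 are in the table and 88 were tested. The list was made with earlier results of these data known. In EpiLC against ESC 40 rose and 32 fell, with a list median of 0.10 beside 0.04 for all genes. In PGCLC_d3 against EpiLC 48 rose and 18 fell, with a median of 0.29 beside 0.21. These are 54.5% and 20.5% of the list, where 47.3% of all genes rose and 27.6% fell. Under median-of-ratios rescaling the split was nearly even, with 33 higher and 30 lower, as it was for all genes, at 36.1% and 37.6%. Under quantile normalization it was 41 higher and 22 lower, or 46.6% and 25%, beside 37.7% and 36.5% of all genes. In PGCLC_d3ag3 against PGCLC_d3 31 rose and 36 fell, or 35.2% and 40.9%, where 25.7% of all genes rose and 44.8% fell, with a median of 0.00 beside -0.18. There the balance turned with the scaling, to 41 higher and 28 lower under median-of-ratios rescaling (all genes 35% and 35.5%) and 33 higher and 23 lower under quantile normalization (all genes 34.6% and 34.8%). The called shares, 81.8%, 75% and 76.1%, stand beside 67.3%, 74.9% and 70.4% of all genes.

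The folding genes encode prefoldin and the CCT chaperonin, which fold new tubulin, and the cofactors that join alpha to beta. Of 20 tested, 12 rose and 5 fell in EpiLC against ESC, 9 rose and 3 fell in PGCLC_d3 against EpiLC, and 14 rose and 3 fell in PGCLC_d3ag3 against PGCLC_d3. The shares that rose were 60%, 45% and 70%, beside 35.4%, 47.3% and 25.7% of all genes. In PGCLC_d3 against EpiLC the share that rose thus lay near the background, while 15% fell, beside 27.6% of all genes. Under median-of-ratios rescaling 4 rose and 7 fell in that comparison, or 20% and 35%, beside 36.1% and 37.6% of all genes. Under quantile normalization 11 rose and 2 fell there, or 55% and 10%, beside 37.7% and 36.5% of all genes. In PGCLC_d3ag3 against PGCLC_d3 17 of the 20 rose under median-of-ratios rescaling and 11 under quantile normalization, or 85% and 55%, beside 35% and 34.6% of all genes. Tbca, a cofactor that holds beta-tubulin, averaged 122.5 ± 6.72 TPM in PGCLC_d3ag3 and 59.9 ± 3.79 in PGCLC_d3 (SD, n = 2 each; log2 1.02, limma adjusted p = 2.11e-06), and was also lower in PGCLC_d3 than in EpiLC (log2 -0.82, limma adjusted p = 5.1e-06). Arl2, a GTPase that works with the cofactors, averaged 144.4 ± 0.998 TPM in PGCLC_d3 and 51.5 ± 1.67 in EpiLC (log2 1.47, limma adjusted p = 1.3e-07). In EpiLC against ESC, Cct3 rose by 0.65 (limma adjusted p = 1.8e-06). Among folding genes whose higher group averaged 10 TPM or more, the largest rise there was that of Pfdn2 (log2 1.06, limma adjusted p = 6.97e-05). The largest fall was that of Pfdn1 (log2 -0.88, limma adjusted p = 3.64e-06).

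Of the 3 genes of tubulin mRNA autoregulation, by which free tubulin sets the decay of its own mRNA, Ttc5 encodes the protein that recognises nascent tubulin. It averaged 113 ± 2.12 TPM in EpiLC and 82.1 ± 0.774 in ESC (log2 0.46, limma adjusted p = 2.42e-05), and 166.1 ± 1.06 TPM in PGCLC_d3 (log2 0.55 against EpiLC, limma adjusted p = 4.84e-06). In PGCLC_d3ag3 against PGCLC_d3 its log2 difference was -0.03 (limma adjusted p = 0.636). Cnot11, a subunit of the deadenylase complex, rose by 0.46 in PGCLC_d3ag3 against PGCLC_d3 (limma adjusted p = 7.04e-05). Scaper, the third gene, named here after its values were seen, went against Ttc5 in EpiLC against ESC (log2 -0.82, limma adjusted p = 0.000145). In PGCLC_d3 against EpiLC its log2 difference was 1.40 (limma adjusted p = 2.45e-06).

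Enzymes of the tail and of lysine acetylation numbered 18 tested genes, of which 8 rose and 7 fell, 11 rose and 3 fell, and 5 rose and 10 fell in the 3 comparisons. In EpiLC against ESC 44.4% rose and 38.9% fell, beside 35.4% and 31.8% of all genes. In the later 2 comparisons the list leaned the same way as all genes. In PGCLC_d3 against EpiLC 61.1% rose, beside 47.3% of all genes, and 55.6% fell in PGCLC_d3ag3 against PGCLC_d3, beside 44.8%. In that last comparison 7 rose and 5 fell under quantile normalization, or 38.9% and 27.8%, beside 34.6% and 34.8% of all genes. Agbl2, a carboxypeptidase that removes glutamates from the tail, averaged 28.7 ± 3.38 TPM in EpiLC and 0.423 ± 0.0635 in ESC (SD, n = 2 each; log2 4.38, limma adjusted p = 4.47e-09), and fell to 1.47 ± 0.303 TPM in PGCLC_d3 (log2 -3.59, limma adjusted p = 1.49e-08). Like Tubb4a, Agbl2 was far higher in EpiLC than in any other group. Vash1, which removes the last tyrosine of alpha-tubulin, averaged 15.6 ± 0.171 TPM in PGCLC_d3 and 1.01 ± 0.283 in EpiLC (log2 3.05, limma adjusted p = 3.19e-08). In PGCLC_d3ag3 against PGCLC_d3, Vash1 fell by 1.42 (limma adjusted p = 1.03e-05). There the glutamylase gene Ttll1 fell to 5.44 TPM, against 17.2 TPM in PGCLC_d3 (limma adjusted p = 4.49e-06), and Sirt2, a deacetylase of alpha-tubulin, fell by 1.80 (limma adjusted p = 1.36e-06), while Svbp, the partner of Vash1, rose by 0.99 (limma adjusted p = 1.23e-05).

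Of 31 tested genes that bind, grow, shorten or cut microtubules, 14 rose and 12 fell, 15 rose and 9 fell, and 7 rose and 15 fell in the 3 comparisons. In EpiLC against ESC the shares were 45.2% higher and 38.7% lower, beside 35.4% and 31.8% of all genes. In the later 2 comparisons these shares were near those of all genes, at 48.4% higher and 29% lower beside 47.3% and 27.6%, and 22.6% higher and 48.4% lower beside 25.7% and 44.8%. Stmn2, a tubulin-binding protein of neurons, averaged 1.51 ± 0.854 TPM in EpiLC and 152.6 in both ESC libraries (log2 -5.98, limma adjusted p = 1.83e-08), and Mapt, which encodes tau, 0.743 ± 0.0521 and 17.7 ± 1.93 TPM in the same groups (log2 -3.42, limma adjusted p = 1.2e-08). In EpiLC against ESC, other neuronal genes went both ways. Map1b, described below, had a log2 difference of -0.90 (limma adjusted p = 0.000497). Map1a, a microtubule-associated protein of neurons named here after its values were seen, averaged 1.19 ± 0.227 TPM in EpiLC and 0.0535 ± 0.0238 in ESC (log2 1.05, limma adjusted p = 4.9e-05), and of the 5 neural markers tested 2 rose and 2 fell. Map1b, its axonal relative, averaged 58.2 ± 1.54 TPM in PGCLC_d3 and 9.07 ± 0.858 in EpiLC (log2 2.56, limma adjusted p = 2.38e-07), and 6.26 ± 1.33 TPM in PGCLC_d3ag3 (log2 -3.04 against PGCLC_d3, limma adjusted p = 2.06e-07). Map7d2, a relative of the kinesin-1 cofactor Map7, rose by 1.23 in PGCLC_d3 against EpiLC and by 1.03 in PGCLC_d3ag3 against PGCLC_d3 (limma adjusted p = 3.35e-07 and 2.23e-06).

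Of 16 tested genes of gamma-tubulin nucleation, 5 rose and 7 fell, 10 rose and 3 fell, and 4 rose and 8 fell in the 3 comparisons. In EpiLC against ESC the shares were 31.2% higher and 43.8% lower, beside 35.4% and 31.8% of all genes. In PGCLC_d3ag3 against PGCLC_d3 the shares, 25% higher and 50% lower, were near the 25.7% and 44.8% of all genes. In PGCLC_d3 against EpiLC they were 62.5% and 18.8%, beside 47.3% and 27.6%. There they were 50% and 31.2% under median-of-ratios rescaling, beside 36.1% and 37.6% of all genes. Under quantile normalization they were 43.8% and 25%, beside 37.7% and 36.5%. Pcnt, the scaffold protein pericentrin of the centrosome, averaged 15 ± 1.15 TPM in EpiLC and 66.4 ± 8.92 in ESC (log2 -2.07, limma adjusted p = 6.17e-07). Tubgcp3, a subunit of the gamma-tubulin ring, rose by 0.89 in PGCLC_d3 against EpiLC (limma adjusted p = 2.66e-05) and fell by 0.88 in PGCLC_d3ag3 against PGCLC_d3 (limma adjusted p = 3.99e-05). Its fall in EpiLC against ESC was -0.51, and -0.33 without ESC replicate 2.

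**Figure D5:**
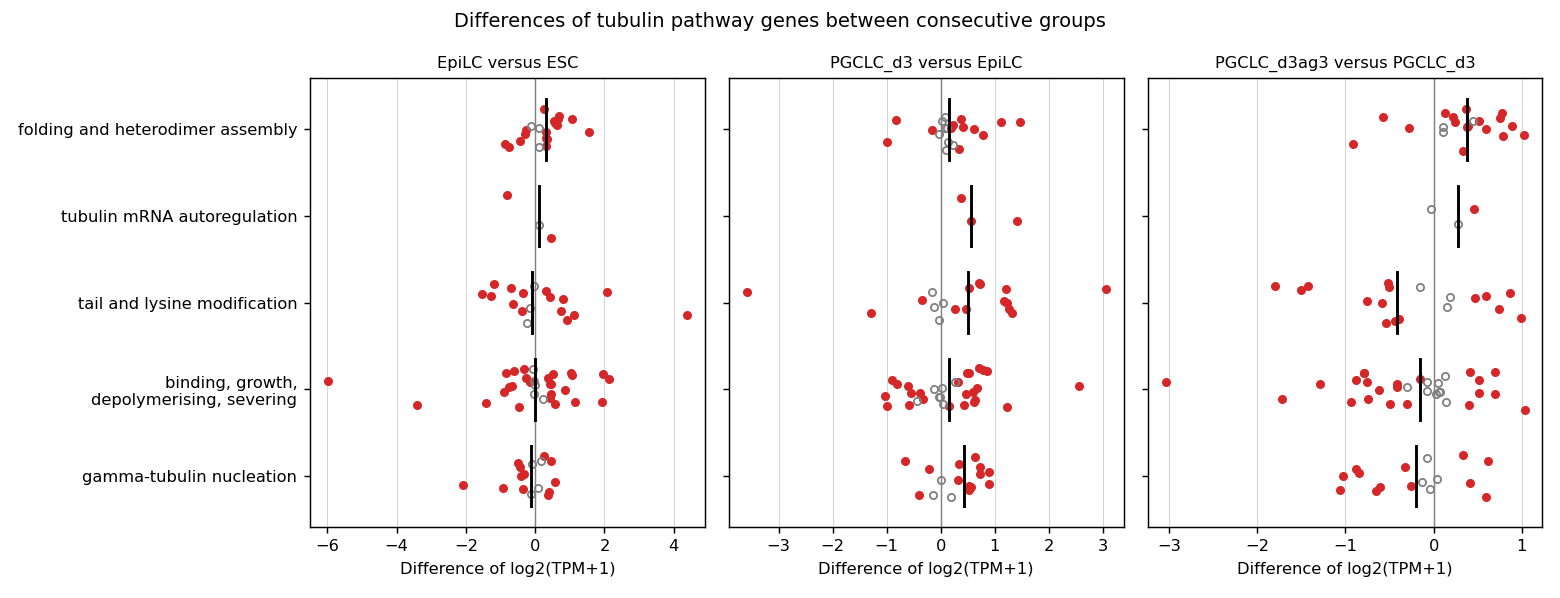
Difference of log2(TPM+1) of the 88 tested tubulin pathway genes in the 3 comparisons, in 5 groups; filled red points passed the limma test at an adjusted p under 0.05, open grey points did not, and the black line is the median of a group. The folding genes lie mostly right of 0 in PGCLC_d3ag3 against PGCLC_d3, and Stmn2 is the point at -5.98 in EpiLC against ESC.

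Replicates correlated at Pearson r of 0.9946 to 0.9975 across the 13571 tested genes, which are not independent. Relative to ESC replicate 1, depth estimated from the steps between the lowest values was 1.14 to 1.49 in ESC replicate 2, EpiLC and PGCLC_d3, and 2.17 and 2.37 in PGCLC_d3ag3. The labelled cell types were checked against summed marker levels. Of 5 naive markers the sum was 2017 to 2041 TPM in ESC and at most 199.6 TPM elsewhere, of 4 formative markers 2951 to 3180 TPM in EpiLC and at most 156.7 elsewhere, and of 6 germ cell markers 1424 to 1431 TPM in PGCLC_d3, 929.9 to 930.1 in PGCLC_d3ag3 and at most 115.6 elsewhere. Most of the formative sum in EpiLC was Dnmt3b, at 2666 and 2887 TPM. Fgf5 of the formative list was listed at 0 in both ESC and both PGCLC_d3 libraries. In EpiLC it was also near 0, at 0.0747 and 0 TPM.

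Markers of cells that the cultures could also hold moved between the groups as well. The sum of 11 fibroblast and feeder markers was 24.6 to 29.8 TPM in ESC, 46.3 to 86.2 in EpiLC, 5.08 to 8.39 in PGCLC_d3 and 12.5 to 15.9 in PGCLC_d3ag3, with Dcn and Lum listed at 0 in both PGCLC_d3 libraries. For 11 gonadal somatic markers it was 6.18 to 6.75, 17.7 to 18.3, 29.3 to 36.8 and 20.3 to 28.5 TPM in the same order. In PGCLC_d3 most of it was Irx3, which averaged 24.1 TPM there and 7.41 TPM in PGCLC_d3ag3. Of the 7 gonadal markers tested, 4 were called higher and 1 lower in PGCLC_d3ag3 against PGCLC_d3, or 57.1% and 14.3%. Over all tested genes 25.7% were called higher and 44.8% lower. The part of such cells in the tubulin levels was not tested, nor was that of reads from the mouse feeder cells.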

How the data were processed

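RNA sequencing of 4 groups with 2 libraries each was used, and the sample titles give groups and replicate numbers. SMART-Seq v4 and KAPA Hyper Prep kits served for library construction, per the labels' protocols. Per the submitters' processing notes, bcl2fastq 2.20, cutadapt 1.1.6, HISAT2 2.1.0 and featureCounts of Subread 1.6.5 were used with the rat build rn7. The deposited values are log2(TPM+1) per gene, made by the authors, and how reads common to several copies were counted is not given in the sources used here. From them TPM was recomputed, and 11066 rows without a gene name were left out. TPM keeps no read totals, so depth is known only relative to ESC replicate 1.

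The filter kept 13571 genes that reached 1 TPM in at least 2 of the 8 libraries. They entered 1 limma fit of all groups (version 3.58.1, under R 4.3.3; moderated with an intensity trend, 2-sided, 4 residual degrees of freedom). P-values were adjusted by Benjamini-Hochberg over all tested genes of a comparison, with a threshold of 0.05. The fit was also run on simulated data with known changes, and the outcome of that run is not given here. The 10 tubulin genes, the pathway list and the marker lists were chosen with earlier results of these data known. From each pathway list the rule names up to 3 rises and 3 falls that passed the test, by size, whose higher group averaged 10 TPM or more, and for the 3 isotypes of widest range the 3 genes of highest correlation among genes whose group means span at least 1 on the log2 scale. The text gives some of the pathway genes under this rule, not always the largest. Map1a and Scaper fall outside it. Like the marker genes singled out in the text, these were named after their values were seen. Shares were computed over the summed TPM of the alpha- or beta-tubulin genes. Alternatives were another pseudocount (0.1), no filter, a filter at 5 TPM, median-of-ratios rescaling, quantile normalization, the 2 groups of a comparison alone, a replicate block and each library left out. Promoters are those of RefSeq on the assembly GRCr8, matched by symbol for 10 of 10 isotypes. Coordinates of that assembly are printed for promoters only, since the authors used another build.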

Additional observations from a re-analysis of the deposited data

How the results depend on the processing

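With 2 libraries a group and 4 residual degrees of freedom, small differences cannot be placed, and TPM without read totals gives no counting error. All 30 differences of the 10 isotypes kept their direction with a pseudocount of 0.1 and with a replicate block, and all 42 counts of calls stayed within 1.5 times. The block left genes higher in EpiLC against ESC at 4835, against 4807 without it. Same-numbered libraries of different groups shared no deviation (correlations of -0.037 to 0.066), so the numbers do not pair them. Direction turned under median-of-ratios rescaling for Tuba1b in PGCLC_d3ag3 against PGCLC_d3 (0.13) and Tubd1 in PGCLC_d3 against EpiLC (-0.04). Under quantile normalization it turned for Tuba1c (0.02), Tubg2 (-0.08) and Tubd1 (-0.16) in PGCLC_d3 against EpiLC, and for Tubb2a (0.11), Tubb3 (0.03) and Tubb4b (-0.01) in PGCLC_d3ag3 against PGCLC_d3. With 1 library left out, Tuba3b in EpiLC against ESC ranged from -0.02 to 0.11 and Tubd1 in PGCLC_d3ag3 against PGCLC_d3 from -0.01 to 0.10. Of the pathway genes, 30 fell in PGCLC_d3 against EpiLC under median-of-ratios rescaling, against 18, and 23 fell in PGCLC_d3ag3 against PGCLC_d3 under quantile normalization, against 36. Of the 30 isotype differences, 29 kept their direction under median-of-ratios rescaling and 27 under quantile normalization, as did 238 of 240 with a library left out. Over the listed isotypes alone, 27 of 40 shares moved by more than 1 SD, since the other genes of the family then leave the sum. The causes of the other changes were not tested.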
